A study of Homo sapiens with 2 samples.

Results

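The 10 genes described here encode the proteins through which HepG2 cells receive insulin and insulin-like growth factor (IGF) signals. They comprise the receptors INSR, IGF1R and IGF2R, the receptor substrates IRS1 and IRS2, the ligand IGF2, and the IGF binding proteins IGFBP1, IGFBP2, IGFBP3 and IGFBP4. All probes that are not controls and whose RefSeq transcript belongs to one of these genes were taken from both arrays, which gave 12 probes, and all 10 genes were measured, out of 23752 genes or transcripts measured in all. HepG2 is an established human cell line from a liver tumour. In the DMSO group, the cells received the solvent dimethyl sulfoxide for 24 h, and in the HTE group they received hawk tea extract (HTE), an extract of the leaves or buds of a non-Camellia tea plant, for 24 h at the 200 µg/mL given in the sample labels (the text of the study gives a higher dose for this experiment). Cells of both groups were maintained in high-glucose medium with fetal bovine serum, a source of IGFs. Each group is 1 Agilent 1-colour array of total RNA, hybridised on the same slide, so array and treatment cannot be told apart and no test between the conditions was possible. A whole-cell RNA level is read here, and fewer cells of a type and less RNA per cell cannot be told apart.

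Insulin binds the insulin receptor, and IGF1 and IGF2 bind mainly the IGF1 receptor. Both receptors are tyrosine kinases that phosphorylate the substrates IRS1 and IRS2, which recruit PI3 kinase and so turn on the kinase AKT. AKT keeps FOXO transcription factors out of the nucleus, and in liver cells insulin thereby represses several transcripts, IGFBP1 and IRS2 among the best known. The IGF binding proteins are secreted, carry IGFs outside the cell and limit or prolong their access to the receptor, and IGF2R carries IGF2 to the lysosome without a tyrosine kinase of its own.

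The processed signal is the background-subtracted brightness of a spot, in intensity units. A log2 ratio is the log2 signal on the HTE array minus that on the DMSO array, after the 75th percentile of each array was set to the same value. That percentile was 4020 on the DMSO array and 3570 on the HTE array, so the scaling added 0.17 to every ratio. All 12 probes were well above background on both arrays and none was saturated, while 60.6% of all spots on the DMSO array and 56.6% on the HTE array were well above background. With 1 array per group, the only errors at hand are those within an array. Spots of one probe differed by a median SD of 0.051 in log2 ratio (688 probes with at least 5 replicate spots), over 4137 genes with several probes the median SD between probes of a gene was 0.16, and the error model of the scanner software gave 0.20 to 0.25 for a single ratio of the members. None of these includes the spread between cultures.

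The hepatocyte markers fixed for the check of the cell type, ALB, AFP, APOA1, TTR, SERPINA1 and HNF4A, were all well above background on both arrays, with log2 ratios from -0.19 for AFP to 0.21 for SERPINA1. Of the markers of other cell types, 4 of 6 were measured, while CDH5 (endothelial) and DCN (fibroblast) were at background level on both arrays. PECAM1 (endothelial) read 804 on the DMSO array and 203 on the HTE array by its brightest probe, a log2 ratio of -1.82, COL1A1 had a ratio of -0.63, CD68 0.46, and the 2 measured of 4 PTPRC probes 0.14 and -0.88. The part of these markers in the members' values was not tested.

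Most of the insulin and IGF genes had a higher scaled signal after HTE. Of the 10 members, 8 had a log2 ratio above 0, where 45.7% of all genes did, and 2, IGF2 and IGFBP4, lay below it. Without scaling 7 members lay above 0, and when scaled to spike-in RNA 2 did. The ratios of IGF1R (0.13) and IGF2 (-0.14) were smaller than their model error of 0.20. IGFBP1, IGFBP3 and IRS2 were at least 2-fold higher, which is 3 of the 10 members, where 5.25% of all genes were at least 2-fold higher. No member was at least 2-fold lower, where 3.03% of all genes were. The median log2 ratio was 0.55 over the members and 0.0 over all genes. These counts describe one pair of arrays, and the genes were not chosen independently of earlier results of the same arrays.

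**Figure D1:**
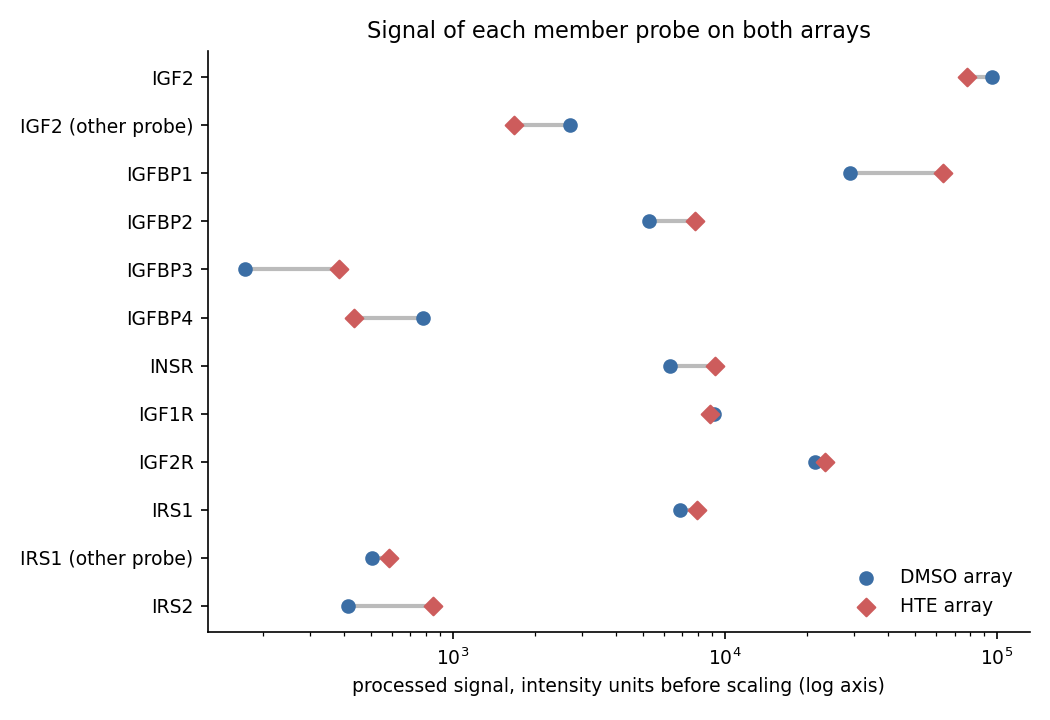
The horizontal axis gives the processed signal (intensity units before scaling, log axis) of each of the 12 member probes, with a circle for the DMSO array and a diamond for the HTE array. The diamond lies to the right for IGFBP1, IGFBP2, IGFBP3, INSR, IGF2R, IRS1 and IRS2, to the left for IGFBP4 and both IGF2 probes, and almost on the circle for IGF1R.

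The insulin receptor itself, INSR, which starts the signal at the cell surface, had a signal of 6298 on the DMSO array and 9250 on the HTE array. Its log2 ratio was 0.73, a 1.65-fold higher level with a model error of 0.20, and 9.25% of all genes had a ratio as high or higher. The IGF1 receptor, IGF1R, the closest relative of INSR, read 9122 and 8855. The scaled ratio of IGF1R was 0.13, smaller than its model error of 0.20, and without scaling it was -0.043, so no direction can be given for it. IGF2R, which clears IGF2, read 21580 and 23449, a log2 ratio of 0.29. The median of the 3 receptors was 0.29, with INSR the highest. Under spike-in scaling all 3 lay below 0, INSR at -0.50, IGF2R at -0.93 and IGF1R at -1.09.

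Both receptor substrates had higher signals after HTE. IRS1, a substrate found in most tissues, read 6853 on the DMSO array and 7889 on the HTE array with its brighter probe, a log2 ratio of 0.37. Its dimmer probe read 504 and 583, a ratio of 0.38, so both probes gave the same 1.30-fold difference. IRS2, a substrate through which insulin acts on glucose production and lipid synthesis in liver, read 413 and 847. Its log2 ratio was 1.21, or 2.31-fold higher, with a model error of 0.21, and 3.42% of all genes had a ratio as high or higher. It rests on 1 probe with 1 spot per array. The paper lists IRS2 among genes altered under HTE by qRT-PCR in HepG2 cells, at a dose above that of the sample labels. Its text gives no direction for IRS2. Without scaling the IRS2 ratio was 1.03, still over 2-fold, and scaled to the E1A spike-in RNA it was -0.016, which ends the call and turns the sign.

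The start of IRS2 is shown because insulin represses this gene through its promoter in liver, where FOXO factors act on an insulin response element. The sequence, from RefSeq on GRCh38.p14, is the 250 bases before the transcription start at chr13:109786584-109786833, read on the minus strand. Capitals mark matches on either strand to GGGCGG, the GC box bound by SP1, and to CAAAACA, the core of the insulin response element.
IRS2: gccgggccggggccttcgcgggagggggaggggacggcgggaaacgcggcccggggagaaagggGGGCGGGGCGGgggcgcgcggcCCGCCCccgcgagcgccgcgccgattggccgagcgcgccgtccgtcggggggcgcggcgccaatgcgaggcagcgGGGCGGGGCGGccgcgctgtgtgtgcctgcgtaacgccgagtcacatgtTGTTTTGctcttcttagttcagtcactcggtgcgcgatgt
These 250 bases hold 5 matches to the GC box, some of them overlapping, and 1 match to CAAAACA, written TGTTTTG on this strand, whose first base lies 40 bases before the start. The shares and member counts that follow come from a longer stretch, which also takes in 50 bases after the start. Shares count promoter entries, while members are counted as genes, 8 genes with 10 entries. CAAAACA occurs in 4.92% of the 35116 promoters of the table, and of the 8 members with an entry IRS2 alone holds it. The FOXO consensus GTAAACA occurs in 3.42% of promoters and in none of these 8 members. The E-box CACGTG occurs in 7.26% of promoters and, among the members, at IRS1 and IGF2R, and the GC box in 45.0% of promoters and at all 8 members. A match is a description of letters, and the arrays do not show what binds there.

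The ligand IGF2, a growth factor made in fetal liver and in liver tumour lines, was among the 2 members below 0. Its brighter probe read 96479 on the DMSO array and 77624 on the HTE array, a log2 ratio of -0.14, smaller than its model error of 0.20. Its dimmer probe read 2696 and 1675, a ratio of -0.52. Both IGF2 probes were lower after HTE, and the gap between them was larger than the usual spread between probes of one gene. A separate probe for the read-through transcript INS-IGF2 stayed at background level, with 16.4 on the DMSO array and 23.4 on the HTE array.

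The binding proteins spread more widely than the receptors. IGFBP1, an insulin-repressed hepatocyte protein that binds IGFs in plasma, read 28781 on the DMSO array and 63734 on the HTE array. Its log2 ratio of 1.32, or 2.49-fold higher with a model error of 0.20, was the largest among the members, and 2.81% of all genes reached it. IGFBP1 has 1 probe with 1 spot per array, and over the alternatives its ratio lay between 0.096, under spike-in scaling, where it was no longer 2-fold higher, and 1.36, under normexp background correction. Without scaling it was 1.15.

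IGFBP2 and IGFBP3 each have 10 replicate spots on every array, so for these 2 members a spread between spots can be given. The 10 spots of IGFBP3, the main IGF carrier in blood, read 145 to 232 on the DMSO array with a median of 169, and 356 to 437 on the HTE array with a median of 377. All 10 spots were brighter on the HTE array, and the ranges did not overlap. How many of the other replicated probes separate in the same way was not counted. The log2 ratio of IGFBP3 was 1.31 ± 0.21 (SD, n = 10 spots), 2.49-fold higher, with single spots between 1.03 and 1.62. IGFBP3 was the dimmest member probe, and background correction by normexp lowered its ratio to 0.99, just under 2-fold, while spike-in scaling gave 0.093.

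IGFBP2, a binding protein that is abundant in fetal liver, read 4981 to 5578 on the DMSO array with a median of 5254. On the HTE array its 9 spots without an outlier flag read 7552 to 8148 with a median of 7833. The HTE spots all lay above the DMSO spots, again with no count of the other replicated probes that do so. The log2 ratio of IGFBP2 was 0.74 ± 0.048 (SD, n = 9 spots), 1.67-fold higher, with single spots between 0.67 and 0.80. These spot errors are technical and say nothing of the spread between cultures.

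**Figure D2:**
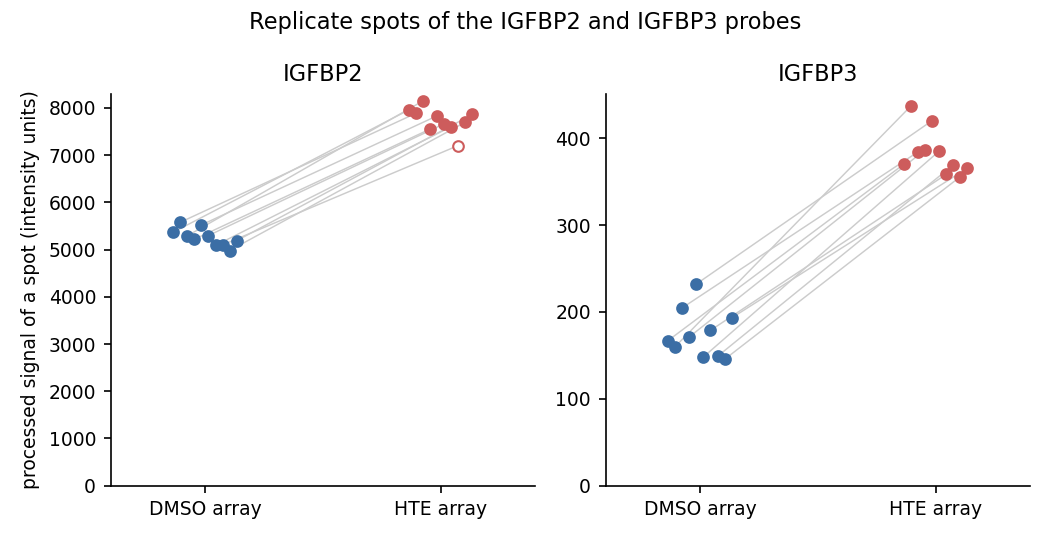
The vertical axes give the processed signal (intensity units, from 0) of each of the 10 spots of the IGFBP2 and IGFBP3 probes, blue for the DMSO array and red for the HTE array, with lines joining the same spot position and an open circle for the spot with an outlier flag. The IGFBP3 spots lie between 145 and 232 on the DMSO array and between 356 and 437 on the HTE array.

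IGFBP4, a binding protein that mostly holds IGFs away from their receptor, went the other way. It read 778 on the DMSO array and 436 on the HTE array, a log2 ratio of -0.67, or 1.59-fold lower, with a model error of 0.22. Of all genes, 8.37% had a ratio as low or lower. IGFBP4 was thus the only member whose level was lower by over 1.5-fold, while IGFBP1, IGFBP2, IGFBP3, INSR and IRS2 were higher by over 1.5-fold. Near that cutoff, 10.5% of all genes had a log2 ratio of -0.59 or lower, and 12.5% had 0.58 or higher.

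The members nearest to the 2-fold line were IRS2, 0.21 above it on the log2 scale, and IGFBP2 and INSR, which fell short of it by 0.26 and 0.27 on the same scale. These distances are of the size of the model error of a single ratio, 0.20 to 0.21 for these probes.

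**Figure D3:**
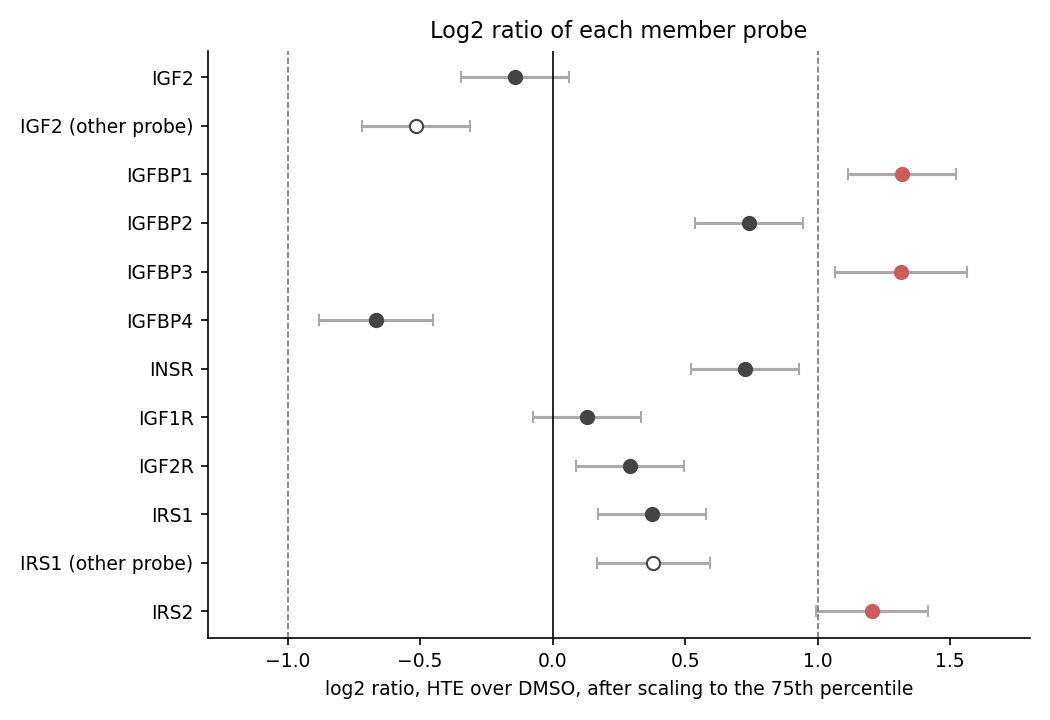
The horizontal axis gives the log2 ratio of HTE over DMSO for each member probe, with bars for the error model of the scanner software (not a replicate error), dashed lines at 2-fold, red for genes at least 2-fold higher, and open circles for the dimmer probe of a gene with 2 probes. IGFBP1, IGFBP3 and IRS2 lie at 1.32, 1.31 and 1.21, beyond the line, while IGF2 and IGFBP4 lie below 0.

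The start of IGFBP3 is shown beside that of IRS2 because it was the other dim gene past 2-fold, and no entry for IGFBP1 was used. The 250 bases before the IGFBP3 start lie at chr7:45921273-45921522 of GRCh38.p14 and are read on the minus strand, with capitals for matches to the GC box.
IGFBP3: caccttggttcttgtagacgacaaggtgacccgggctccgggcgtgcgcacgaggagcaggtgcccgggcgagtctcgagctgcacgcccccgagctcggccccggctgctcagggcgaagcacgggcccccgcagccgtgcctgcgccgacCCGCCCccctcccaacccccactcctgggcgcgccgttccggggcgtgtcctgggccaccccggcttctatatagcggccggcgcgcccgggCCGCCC
They hold 2 matches to the GC box, on the opposite strand, and none to CAAAACA, to the FOXO consensus or to the E-box. The GC content is 76.0%, close to the 76.4% of the IRS2 stretch, so both starts are rich in G and C and they share the GC box that 45.0% of all promoters hold.

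Of the other genes of the pathway, 54 were listed by role and 49 were measured. INS, IGF1, PAPPA2 and G6PC1 were among those too dim on both arrays to count as measured. Of the measured genes, 1 was at least 2-fold higher, SOS1, which is 2.04%, where 5.25% of all genes were. At least 2-fold lower were 2, IGFBP5 and FOXO1, where 3.03% of all genes were. Of the 49 genes, 26 lay above 0 (53.1%, beside 45.7% of all genes), 21 below, and 2 at 0. Their median log2 ratio was 0.042, beside 0.55 for the members and 0.0 for all genes.

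Among ligands and carriers, IGFBP5, a binding protein that attaches to the extracellular matrix, read 1799 on the DMSO array and 485 on the HTE array. Its log2 ratio was -1.72, the lowest of all pathway genes measured when each is read by its brightest probe. A dimmer probe of H19 was lower, at -1.88. Adding IGFBP5, IGFBP6 (-0.092) and IGFBP7 (-0.59) to the 4 member binding proteins gave 3 of 7 above 0 (42.9%) and 4 below. Of all genes, 45.7% lay above 0. The median of the 7 was -0.092. The family as a whole therefore held genes on both sides of 0, with a share above 0 close to that of all genes. PAPPA, the protease that cleaves IGFBP4 and so frees IGFs, read 126 and 219, a ratio of 0.97 with a model error of 0.29. IGFALS, the subunit that joins IGFBP3 and IGF in the blood, had a ratio of -0.65.

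The 4 genes listed with IGF2 messenger RNA all lay below 0, where 45.7% of all genes lay above it. IGF2BP1, IGF2BP2 and IGF2BP3 bind this RNA, and H19 is the imprinted RNA next to IGF2. H19 read 873 and 392 with its brighter probe, a log2 ratio of -0.98, and 444 and 107 with its other probe, a ratio of -1.88. IGF2BP1 read -0.41 ± 0.048 (SD, n = 10 spots), while IGF2BP2 (-0.066) and IGF2BP3 (-0.047) lay within the error of a single ratio. The median of the 4 was -0.24, beside -0.14 for the brighter IGF2 probe.

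At the receptor, SOS1, the exchange factor that passes the signal to RAS, read 638 on the DMSO array and 1254 on the HTE array. Its log2 ratio was 1.15, but its other probe gave 0.70, so only 1 of its 2 probes passed 2-fold. GRB10, which binds and restrains INSR and IGF1R, read 4515 and 7000, a ratio of 0.80. GRB2, the adaptor that brings SOS1 to the receptor, was the lowest of the 10 adaptors and brakes at -0.53, and IRS4 and GAB1 were dim on the HTE array and entered at 0. The median of these genes was 0.034.

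The 12 PI3 kinase and AKT genes varied little. The highest was INPPL1, a lipid phosphatase that limits the signal, at 0.57. Of the 12, 8 lay above 0, where 45.7% of all genes did, and their median was 0.12. AKT1 had a ratio of -0.20 and AKT2 of 0.12. None of the 12 passed 2-fold in either direction, where 5.25% of all genes were higher and 3.03% lower by that fold.

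Of the 13 targets of AKT, 8 lay above 0, where 45.7% of all genes did, and their median was 0.28. FOXO1, the main FOXO factor through which insulin acts in liver, read 3386 and 1420, a log2 ratio of -1.08 with a model error of 0.21. Its relatives FOXO3 and FOXO4 had ratios of 0.34 and 0.82, the latter the highest of the group. FOXO1 transcript was lower on the array on which IGFBP1 and IRS2, which FOXO1 is known to activate, were higher, and the arrays do not measure where the FOXO proteins were.

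Of the 6 insulin responsive liver transcripts, 4 were measured, and none passed 2-fold. PCK1, the gluconeogenic enzyme that insulin represses, read 119 and 210, a log2 ratio of 0.99 with a model error of 0.29. It rests on 1 dim probe with 1 spot per array. The paper reports the opposite direction by qRT-PCR in HepG2 cells, where transcripts it names PEPCK and G6Pase were lower under HTE. Its text and legend give no dose or time for that measurement, so the conditions may differ from those of the arrays. TRIB3, an inhibitor of AKT, read 50199 and 65808, a ratio of 0.56, and PDK4, which spares glucose by braking pyruvate oxidation, had 0.47 with a model error of 0.40. SREBF1, the lipogenic factor that insulin induces, had -0.16 with its brighter probe and 0.97 with its other probe, so its direction depended on the probe. The median of the 4 was 0.51.

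**Figure D4:**
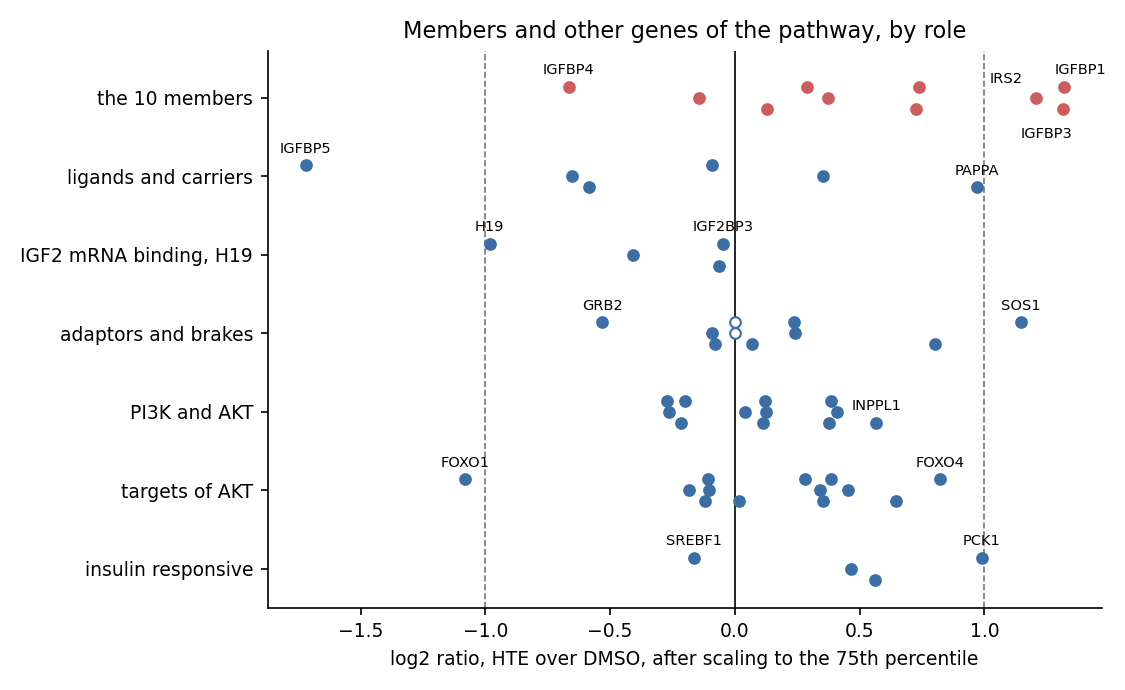
The horizontal axis gives the log2 ratio of HTE over DMSO of the 10 members (red) and of the 49 other measured pathway genes (blue) by role, with dashed lines at 2-fold and open circles for the 2 genes that entered at a bound. The members have a median of 0.55 and the other genes 0.042. By the brightest probe of each gene, SOS1, IGFBP5 and FOXO1 are the only other genes beyond the lines, and H19 lies just inside at -0.98.

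How the arrays were scaled sets the level of every ratio, since a scaling by 1 constant shifts all genes alike. With the signals left unscaled, all genes had a median of -0.16, 7 members lay above 0, and IGFBP1, IGFBP3 and IRS2 were still over 2-fold. Of all genes past 2-fold, 63.4% were higher under the 75th percentile, 42.2% without scaling and 50.4% with each dim probe at its own signal. The E1A spike-in RNA, which is usually added in equal amount at labelling, was brighter on the HTE array, by a log2 ratio of 0.45 to 1.57 over 8 probes before scaling. Spike-ins as dim as IRS2 and IGFBP3 were brighter by 1.25 to 1.57, and one near the brightness of IGFBP1 by 0.92. Those near the brightness of the brighter IGF2 probe were brighter by only 0.45 and 0.46. When the arrays were scaled to the spike-ins, the median of all genes was -1.21 and 0.87% of the genes past 2-fold were higher. IGFBP1 then lay at 0.096, IGFBP3 at 0.093 and IRS2 at -0.016. The other members were all below 0, from -0.48 for IGFBP2 to -1.89 for IGFBP4. The median of the members stood 0.54 above that of all genes, where it stood 0.55 above under the 75th percentile. With no filter on dim probes the median of all genes was 0.21, and the members stood 0.34 above it. Relative to other transcripts of the same array 8 members were higher, where 45.7% of all genes were. Relative to the mean of all spike-ins 2 members were, IGFBP1 and IGFBP3. Before scaling, IGFBP3 at 1.14 lay below the spike-ins of its own brightness, and IGFBP1 at 1.15 lay above the one near its own. The part of the spike-in difference in these values was not tested.

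**Figure D5:**
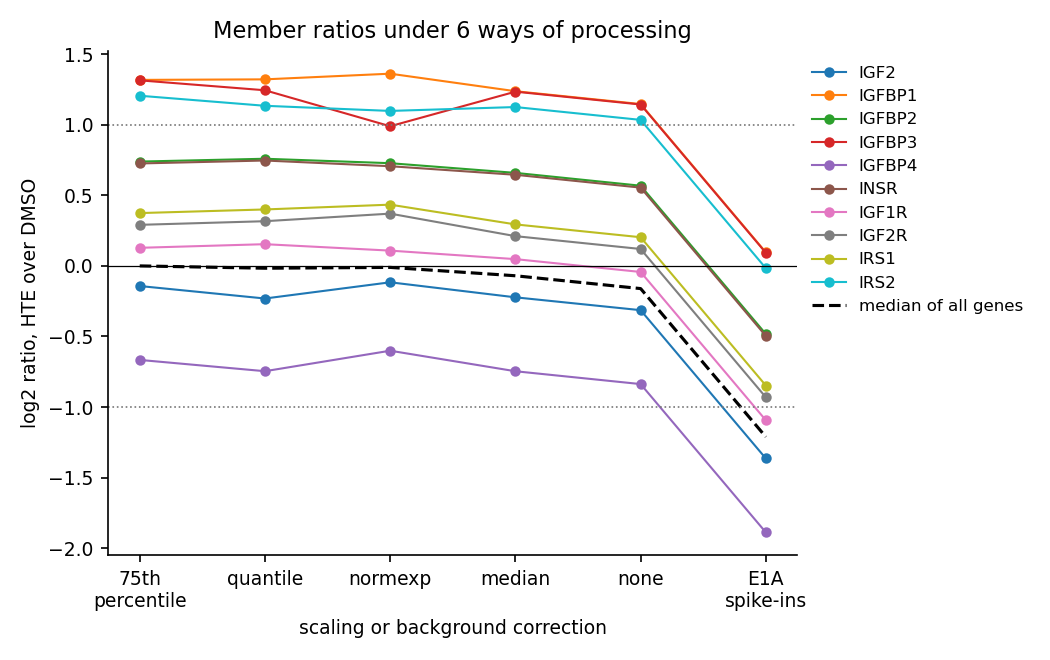
The vertical axis gives the log2 ratio of HTE over DMSO of each member under 6 ways of scaling or background correction along the horizontal axis, with a dashed line for the median of all genes and dotted lines at 2-fold. IGFBP1 is highest throughout and IGFBP4 lowest, IGFBP3 reads 0.99 under normexp, and every value is lower under the E1A spike-ins, where IGFBP1 reads 0.096 and the median of all genes -1.21.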

How the data were processed

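Total RNA of HepG2 cells was labelled with Cy3 and hybridised to 2 Agilent 1-colour arrays, 1 per group. The deposited values are the intensity of each spot (the processed signal), which the authors' scanner software had background-subtracted and detrended but not scaled between arrays. The file header names Feature Extraction 11.5.1.1 and the submitters' processing notes 10.7. Control spots and spots with outlier flags were left out, log2 was taken, and the 75th percentile of each array was subtracted. Values were averaged over the replicate spots of a probe. A probe counted as measured when the share of its spots flagged well above background was 0.5 or more on either array. On an array where it was dim it entered with a bound, the higher of its own signal and the lowest signal well above background, and a bound under 1-fold was set to 0. Of 50599 probes, 28174 were named through the RefSeq table of GRCh38.p14, whose build differs from that in the file header, and the probe with the highest mean signal represented a gene.

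A gene was counted as higher or lower at 2-fold, with no test, since each group is 1 array. The members, the pathway lists and the cell type markers were chosen with earlier results of these data known. Of each list, every gene past 2-fold and the largest rise and fall were named, and further genes were named after their values were seen. The values of some genes are not reported here. Promoter sequences of 8 of the 10 members were taken from RefSeq, those of IGF2 and IGFBP1 were not analysed here, and motifs were searched on both strands. The shares of promoters with a motif include 50 bases after the start, which the printed stretches leave out. The alternatives were normexp (offset 50, on the median spot signal), quantile, median, spike-in and no scaling, no filter or a filter on both arrays, the own signal of dim probes, outlier spots kept, the mean of all probes per gene in place of the brightest, and cutoffs of 1.5-fold and 3-fold. Python 3.11.15, numpy 2.4.6, pandas 2.3.3, R 4.3.3 and limma 3.58.1 were used, and the scripts were tested on simulated data.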

Additional observations from a re-analysis of the deposited data

How the results depend on the processing

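Of the member ratios recomputed under 10 alternatives, 100 values in all, 63 stayed within the spot error and 36 moved by more. The last 1 changed sign after being past 2-fold, IRS2 at -0.016 under spike-in scaling. Many of the 63 could not move. The settings on dim probes leave every member unchanged, since all member probes were well above background on both arrays. Keeping outlier spots or averaging probes can change only a member with a flagged spot or a second probe. INSR, IRS1, IGF1R, IGF2R and IGFBP2 also lay below 0 under spike-in scaling. Under the settings other than spike-in scaling IRS2 lay between 1.03 and 1.21. The median of the members was 0.47 under scaling to the median, 0.38 without scaling and -0.67 under spike-in scaling. The median of the other pathway genes was 0.0, -0.083 and -1.13 under the same 3 settings, and 0.12 with no filter on dim probes. The count of members at least 2-fold higher was 0 under spike-in scaling, 5 at 1.5-fold and 0 at 3-fold, and 2 under normexp, where IGFBP3 read 0.99. The count of members lower was 3 under spike-in scaling and 1 at 1.5-fold. The count of other pathway genes higher was 0 under normexp, without scaling, under spike-in scaling, with the mean over all probes and at 3-fold, and 6 at 1.5-fold. The count of those lower was 28 under spike-in scaling, 5 at 1.5-fold and 1 at 3-fold. The exact shares of all genes past 1.5-fold and 3-fold were not computed, so the counts at 3-fold have no background beside them. Shares of all genes near 1.5-fold are given with IGFBP4. Over all genes the counts higher and lower were 1248 and 720, against 825 and 468 under normexp, 883 and 1209 without scaling, 142 and 16205 under spike-in scaling, 2390 and 1868 with no filter, and 1341 and 1320 with the own signal of dim probes. Where a scaling itself shifts all ratios, the shift follows from its construction, and the cause of the other changes was not tested. No paired analysis was possible because each condition has a single array. Dim probes such as IGFBP3 and PCK1 carry a larger model error than bright ones, and with so few arrays no value has a measured biological error.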

Other observations

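The chromosomal neighbours of the members, taken as the next protein-coding genes in the RefSeq table and chosen after the values were seen, were compared as values. IGFBP1 and IGFBP3 lie next to each other on chromosome 7, and their log2 ratios were 1.32 and 1.31, while TNS3, the next gene after IGFBP3, had 0.081. IGFBP2 and IGFBP5 lie next to each other on chromosome 2, and their ratios were 0.74 and -1.72, while RPL37A on the other side of IGFBP2 had 0.065. IGFBP4 lies on chromosome 17 between TOP2A, a topoisomerase of dividing cells, with a ratio of -1.31, and TNS4, with -2.20. INSR lies on chromosome 19 between ZNF557 (-0.32) and ARHGEF18 (0.032), so its ratio of 0.73 was not shared by either neighbour. Among the neighbours of the other members, RHBDD1 next to IRS1 had 0.25, ARRDC4 next to IGF1R had 0.74 and MRPL23 next to IGF2 had -0.13. Neighbours of IRS2 were not measured.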
